A study of Homo sapiens with 44 samples.

Results

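Day 9 of a directed heart differentiation was compared with day 7 of the same protocol, in 10 of the 44 libraries of the series. Libraries were chosen by their day label alone, with no use of measured values, and comprise 5 wells of day 7 and 5 wells of day 9, numbered 1, 2, 3, 4 and 10 on each day. The cells of every well were H1, a widely used line of human embryonic stem cells, grown on the laminins LN-521 and LN-221. Both groups had received CHIR99021, which blocks the kinase GSK3 and so raises Wnt signalling, at day 0, and IWP2, which blocks the release of Wnt ligands, at day 3. On both days the medium was RPMI with the B27 supplement lacking insulin, and the groups differ by 2 more days in it. All wells come from 1 cell line, and the labels number them as biological replicates without naming separate thaws or passages, so the p-values measure the spread between wells. RNA was taken from whole wells, and in such bulk RNA fewer cells of a type and less RNA per cell cannot be told apart.

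Heart muscle forms from mesoderm by way of progenitors that still divide and carry receptors such as PDGFRA. As these cells become myocytes they assemble sarcomeres, the repeating units in which myosin thick filaments slide along actin thin filaments anchored at Z-discs. They also build the pumps and channels of excitation and calcium release, and the atrial and early ventricular wall secretes natriuretic peptides. Dividing progenitors carry high levels of replication and mitosis genes. Protocols of this type are known to leave other mesoderm and endoderm derivatives in the dish.

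Libraries held 23903377 to 31040870 estimated counts each. The RNA integrity score was 9.6 to 10 on day 7 and 8.9 to 10 on day 9. The biological coefficient of variation, the edgeR estimate of spread between wells beyond counting error, was 20.3% on day 7 and 23.9% on day 9. Over log-scaled levels, the first principal component carried 32.6% of the variance and separated the days. The second carried 27.6% and set apart both wells numbered 10, at 46.7 on day 7 and 31.4 on day 9, from the other 8 wells at -15.9 to 8.6. Those 2 wells were also the only libraries of days 7 and 9 in lane 4. Well number and lane thus cannot be told apart for them. The 2 wells shared features on both days. LPL, a lipase of muscle and fat, stood at 67.1 and 52.2 CPM in them against 2.79 to 9.70 CPM elsewhere, and the immediate early factor FOS at 13.3 and 13.5 CPM against 31.3 to 94.1 CPM. CPM are library-size-scaled counts, corrected by the trimmed mean of M values (TMM), and all levels are given in CPM unless TPM is named. Counts reported for each theme without both wells numbered 10 are an alternative chosen after seeing the data.

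Of 17698 genes with enough counts, 1465 (8.28%) were called at an adjusted p under 0.05, 803 higher on day 9 (4.54%) and 662 lower (3.74%). Adjusted p values throughout are from edgeR's quasi-likelihood test with Benjamini-Hochberg adjustment over these genes. Changes of at least 2-fold were called for 497 genes (2.81%), 373 higher (2.11%) and 124 lower (0.701%). The level ranges of the 5 and 5 wells did not overlap for 1589 genes (8.98%), 797 of them higher (4.50%) and 792 lower (4.48%). The median log2 change over all tested genes was 0.02. Without both wells numbered 10 the counts were 768 higher and 639 lower. Without day 7 well 1 they were 526 and 460. The number called moved with the fit. With the well number as a block 1581 were higher and 1260 lower, so a gene that did not pass in the main fit may pass there. With the spread estimated from all 44 libraries, 327 genes were higher and 126 lower, and limma on log2(TPM + 1) called 54 higher and 8 lower, so that 87.1% of its calls were higher against 54.8% in the count test. In TPM, the values scaled for transcript length, RN7SL transcripts of the signal recognition particle alone took 26.2% to 42.4% of each library, and protein-coding genes 15.6% to 36.5%.

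**Figure D1:**
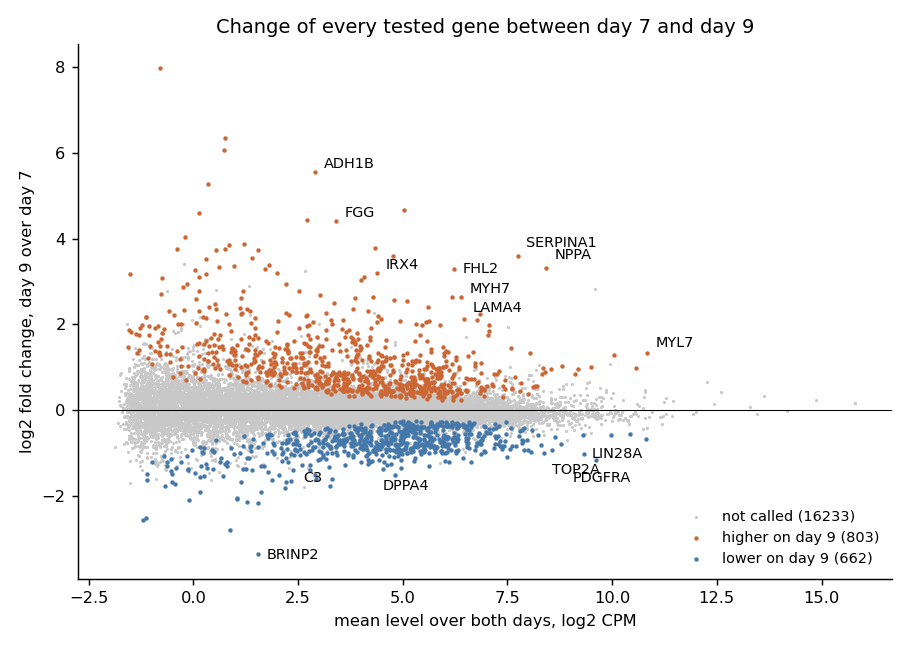
Log2 fold change of day 9 over day 7 (vertical) against the mean level of both days in log2 CPM (horizontal) for 17698 genes, one point each. The 803 genes called higher reach larger changes than the 662 called lower, and labelled genes such as NPPA (3.33) and DPPA4 (-1.25) are described in the text.

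Counts of called members differed widely between the 25 gene lists described here. The lists and their members were chosen with earlier results of these data known. Their shares beside those of all tested genes are thus a description and not an independent test. Of 213 called list members and named genes, 116 were not called with the spread of all 44 libraries, and 141 of the 179 tested by limma on log2(TPM + 1) were not called there. Leaving out 1 well at a time gave 10 further fits, and 39 of the 213 lost the call in at least 1 of them. Where a gene named below did so, the number of fits that lost it is given with the highest adjusted p. In the cell cycle list 38 of 40 tested members were lower and 0 higher, against 3.74% of all tested genes lower. Thick filament, Z-disc and liver-type secreted protein lists had 10 of 18, 10 of 23 and 18 of 35 members higher, against 4.54% of all tested genes higher. Lists of the endothelium, Wnt signalling and the epicardium had 2 of 23, 4 of 32 and 2 of 22 tested members called. Over all tested genes 8.28% were called, and none of these lists fell below that share.

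**Figure D2:**
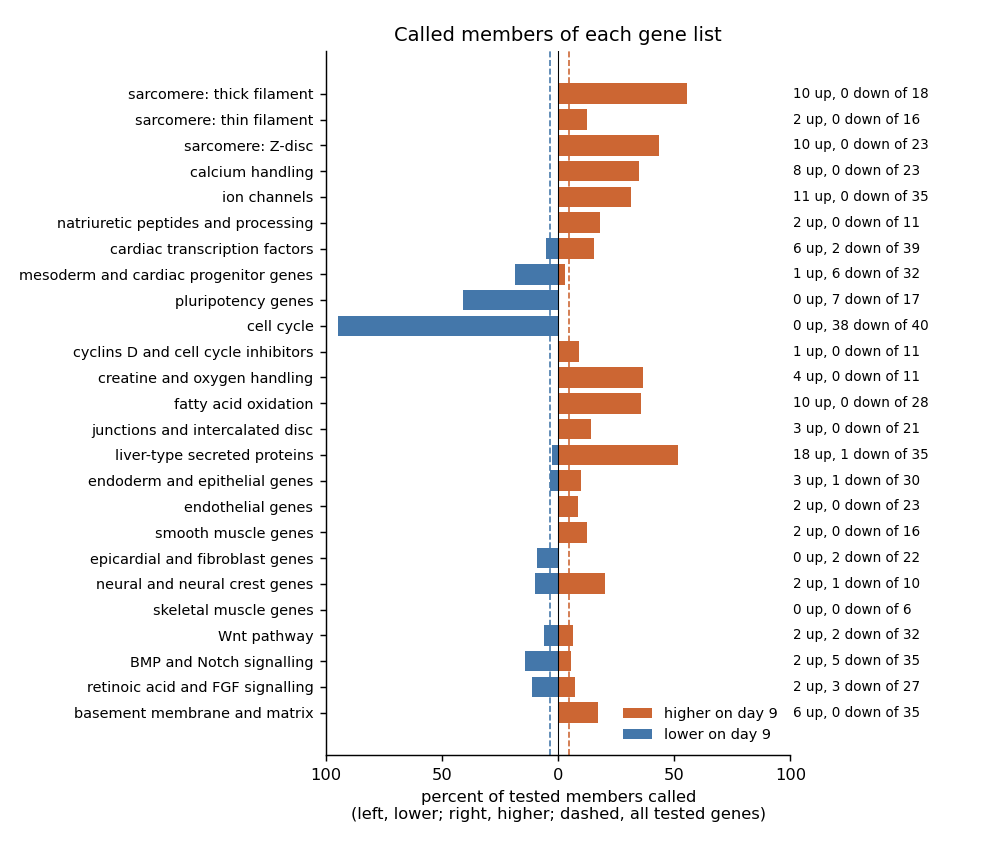
Percent of the tested members of each gene list that were called higher (right, orange) or lower (left, blue) on day 9, with the counts at the right and the percent over all tested genes as dashed lines (4.54% and 3.74%). The cell cycle list stands at 38 of 40 lower, and the thick filament, Z-disc and liver-type lists at 10 of 18, 10 of 23 and 18 of 35 higher.

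NPPA, the gene of atrial natriuretic peptide, rose. Its level was 42.0, 45.8, 55.0, 57.1 and 112 CPM in day 7 wells 1, 2, 3, 4 and 10, and 415, 183, 453, 670 and 1404 CPM in the day 9 wells in the same order. Every day 9 well was above every day 7 well, and well 10 was the highest on each day. The log2 change was 3.33 (SE 0.49, adjusted p = 0.0014). NPPA (chr1:11845709-11848345, GRCh38, minus strand) overlaps CLCN6, and reads of the pair cannot be told apart if strand was not used in counting. CORIN, the membrane protease that cuts the NPPA precursor into the active peptide, stood at 34.2, 34.1, 46.4, 46.6 and 46.3 CPM on day 7. On day 9 the same well numbers gave 187, 106, 177, 178 and 240 CPM. The ranges were apart, with a log2 change of 2.10 (SE 0.19, adjusted p = 0.00014). NPPB, the gene of B-type natriuretic peptide, ran from 22.3 to 94.7 CPM on day 7 and from 22.1 to 366 CPM on day 9, and its log2 change of 1.71 did not pass (adjusted p = 0.14). FURIN, another precursor protease, and the receptor genes NPR1, NPR2 and NPR3 were not called either. In all, 2 of the 11 tested list members were higher (18.2%, against 4.54% of all tested genes) and 0 lower. The median log2 change was 0.44.

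The promoters of NPPA and of 3 sarcomere genes that were higher on day 9 are shown. Serum response factor and MEF2 factors are known to bind CArG and MEF2 boxes in muscle genes, and the NPPA window held 0 matches to either. The 3 sarcomere genes were picked by hand, and each holds a match. They are not typical of the heart genes that rose, as 8 and 7 of the 57 windows counted below held a CArG box or a MEF2 site. Each run is the 250 bases before the RefSeq start, 5′ to 3′ on the gene's strand, in GRCh38.p14. Capitals mark CArG box matches in MYL7 and FHL2, MEF2 site matches in MYOZ2 and FHL2, and the TATAAA letters in NPPA. The windows are chr1:11847784-11848033 (minus strand), chr7:44141333-44141582 (minus), chr4:119135582-119135831 (plus) and chr2:105438514-105438763 (minus).
NPPA: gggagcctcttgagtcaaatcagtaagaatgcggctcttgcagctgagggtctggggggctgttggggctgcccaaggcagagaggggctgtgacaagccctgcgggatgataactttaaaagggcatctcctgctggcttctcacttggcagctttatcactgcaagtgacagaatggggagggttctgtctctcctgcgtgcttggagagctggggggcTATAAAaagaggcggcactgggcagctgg
MYL7: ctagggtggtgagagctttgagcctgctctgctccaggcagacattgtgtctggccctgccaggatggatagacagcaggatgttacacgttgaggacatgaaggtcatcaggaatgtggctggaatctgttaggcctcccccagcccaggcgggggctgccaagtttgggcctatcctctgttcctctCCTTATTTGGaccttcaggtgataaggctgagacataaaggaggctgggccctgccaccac
MYOZ2: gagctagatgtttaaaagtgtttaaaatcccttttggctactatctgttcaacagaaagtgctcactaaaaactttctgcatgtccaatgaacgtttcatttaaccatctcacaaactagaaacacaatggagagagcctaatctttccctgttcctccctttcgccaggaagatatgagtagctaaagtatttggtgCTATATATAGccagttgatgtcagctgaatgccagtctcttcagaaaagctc
FHL2: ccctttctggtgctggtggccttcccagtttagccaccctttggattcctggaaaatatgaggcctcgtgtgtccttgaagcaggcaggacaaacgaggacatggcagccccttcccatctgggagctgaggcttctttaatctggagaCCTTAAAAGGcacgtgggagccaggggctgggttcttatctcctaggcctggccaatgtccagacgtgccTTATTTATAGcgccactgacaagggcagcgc

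Boxes of these kinds were then counted before the starts of the heart genes that rose, as a description without a test. The set was the 50 members of the sarcomere, calcium, channel, natriuretic, creatine and junction lists that were higher on day 9, of which 37 matched a promoter by symbol, with 57 windows. CArG boxes were found in 14.0% of these windows, in 1.14% of the 17410 windows of tested genes and in 1.16% of all 35116 windows in the RefSeq table. MEF2 sites were found in 12.3%, 1.08% and 1.75% of the same 3 sets. Among the windows of all 803 genes called higher the shares were 1.89% and 2.74%. In the same 3 sets the letters AAGTG, the core known for NKX2-5, were in 40.4%, 33.8% and 37.6%. AGATAA, known for GATA factors, was in 12.3%, 5.65% and 9.17%, and CATTCC, known for TEAD factors, in 14.0%, 10.0% and 11.9%. Matches were counted on both strands and describe letters only. The CArG and MEF2 shares of the heart set rest on 8 and 7 windows, and 1 gene can have several windows. Heart list members that were not called were not counted. Whether the boxes go with a rise or with heart genes in general was therefore not tested. The MEF2 match of FHL2 shares 6 bases with a TATAAA match on the other strand.

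Among 18 tested thick filament genes 10 rose (55.6%, against 4.54% of all tested genes). MYH7, the slow beta myosin heavy chain, stood at 14.2, 19.5, 19.9, 21.8 and 40.6 CPM on day 7 and at 74.5, 32.0, 122, 249 and 247 CPM on day 9. Day 9 well 2 lay below day 7 well 10, and the other 4 day 9 wells lay above all of day 7. Its log2 change was 2.64 (SE 0.50, adjusted p = 0.0068), and it shares long stretches of sequence with MYH6, so reads may have been split between them. MYH6, the alpha heavy chain of atrial and early myocytes, was far more abundant at 3596 to 7033 CPM on day 7 and 4204 to 9097 CPM on day 9, and did not pass (log2 0.42, adjusted p = 0.34). MYL7, the atrial regulatory light chain and the most abundant list member per length, averaged 1231 TPM on day 7 and 2967 TPM on day 9. In CPM it read 1077, 769, 851, 1063 and 1421, then 2190, 1063, 2479, 2558 and 4748. Day 9 well 2 again fell inside the day 7 range. The log2 change of MYL7 was 1.33 (SE 0.32, adjusted p = 0.024), and 4 of the 10 fits lost the call, those without day 7 well 1, 2, 3 or 4 (adjusted p up to 0.07).

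Myosin binding protein C, MYBPC3, which tethers myosin heads, stood at 98.6, 63.6, 106, 125 and 121 CPM on day 7 and at 281, 157, 282, 301 and 383 CPM on day 9. No day 9 well overlapped day 7 (log2 1.45, SE 0.23, adjusted p = 0.0022). The ventricular and slow-muscle light chain MYL3 rose from 31.8 to 124 CPM on day 7 to 126 to 351 CPM on day 9 (log2 1.85, SE 0.39, adjusted p = 0.012). MYH7B, a minor slow-type heavy chain, rose from 1.09 to 3.48 CPM to 9.94 to 15.8 CPM (log2 2.68, SE 0.26, adjusted p = 0.00016). The M-band genes MYOM1 and MYOM2, OBSL1, MYLK3, a kinase of the regulatory light chain, and SMYD2, a lysine methyltransferase, completed the 10 that were higher. MYOM2 was lost in 4 and MYLK3 in 7 of the 10 fits that left out 1 well (adjusted p up to 0.06 and 0.08). The giant spring TTN ran from 1419 to 5862 CPM on day 7 and from 3339 to 10267 CPM on day 9 and did not pass (adjusted p = 0.43). MYL2, the ventricular regulatory light chain, reached at most 1.02 CPM in any well and was not tested. All 18 tested members had positive log2 changes, with a median of 0.64, and 10 members were called without both wells numbered 10. With the spread of all 44 libraries 5 were called, and with limma on log2(TPM + 1) 3.

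In the thin filament list only NEB and TMOD1 of 16 tested members were called, both higher (12.5%, against 4.54% of all tested genes). The median log2 change was 0.33. Without day 9 well 10 the median was 0.02, and 4 members were higher and 1 lower without day 9 well 2. Limma on log2(TPM + 1) called 0 of 15 and 3 were higher at an unadjusted p under 0.05, while DESeq2 called 3 higher and 1 lower. With the well number as a block in the edgeR fit, 8 of the 16 were higher and 1 lower. NEB, the nebulin ruler better known from skeletal muscle, stood at 0.726, 0.762, 1.72, 1.46 and 0.700 CPM on day 7 and at 7.56, 5.25, 10.3, 11.3 and 6.83 CPM on day 9. The wells did not overlap, though the level stayed low (log2 2.94, SE 0.31, adjusted p = 0.00028). TMOD1, which caps thin filaments at their pointed end, ran from 24.5 to 41.9 CPM and then from 38.1 to 81.2 CPM (log2 0.97, SE 0.21, adjusted p = 0.014). TNNT2, cardiac troponin T, was already at 507 to 815 CPM on day 7 and at 641 to 1341 CPM on day 9, with overlapping wells (log2 0.52, adjusted p = 0.13). ACTC1, cardiac actin, ran from 1563 to 3236 CPM and from 1282 to 5017 CPM (log2 0.29, adjusted p = 0.69). Cardiac troponin and actin were thus abundant on both days.

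At the Z-disc, FHL2 changed most among the abundant members. FHL2, a LIM-domain protein of the titin region (chr2:105357712-105438513), stood at 11.0, 10.4, 14.9, 12.1 and 21.4 CPM on day 7. On day 9 it stood at 162, 91.3, 111, 126 and 193 CPM, so that the lowest day 9 well stood far above the highest day 7 well. The log2 change was 3.29 (SE 0.25, adjusted p = 4.7e-05). MYOZ2, a calsarcin that holds calcineurin at the Z-disc, went from 10.5, 9.60, 8.67, 8.82 and 12.5 CPM to 52.6, 20.6, 50.6, 52.6 and 115 CPM (log2 2.54, SE 0.35, adjusted p = 0.00100). CSRP3, the muscle LIM protein, went from 14.8, 12.8, 16.1, 17.0 and 28.1 CPM to 76.6, 33.5, 57.8, 54.6 and 132 CPM (log2 2.00, SE 0.33, adjusted p = 0.0029). In both genes well 10 was the highest and well 2 the lowest of the day 9 wells, and no day 9 well reached down to day 7. ACTN2, the alpha-actinin that crosslinks actin at the Z-disc, rose from 118 to 183 CPM to 167 to 513 CPM, with only day 9 well 2 inside the day 7 range (log2 1.33, SE 0.25, adjusted p = 0.0060).

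MYPN, a myopalladin that links nebulin-type rulers to alpha-actinin, was at 0.0382 to 0.430 CPM on day 7 and at 2.49 to 3.93 CPM on day 9 (log2 3.75, SE 0.39, adjusted p = 0.00024). LDB3, TCAP, PALLD, PDLIM3 and the small heat shock gene CRYAB were the other members called higher, and PDLIM3 was lost in 7 of the 10 fits (adjusted p up to 0.09). ANKRD1, the most abundant member per length, ran from 407 to 1139 CPM and from 255 to 3040 CPM and did not pass (adjusted p = 0.27). DES and FLNC, for desmin and filamin C, did not pass either. Of 23 tested members 10 were higher (43.5%, against 4.54% of all tested genes) and 0 lower. The median log2 change was 0.89, and 10 were called higher and 1 lower without both wells numbered 10. With limma on log2(TPM + 1) 5 were called.

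Calcium handling genes included 8 of 23 higher (34.8%, against 4.54% of all tested genes) and 0 lower, with a median log2 change of 0.50. ATP2A2, the pump that refills the sarcoplasmic reticulum, stood at 477, 364, 379, 427 and 334 CPM on day 7 and at 755, 392, 857, 844 and 1035 CPM on day 9. Apart from well 2, all day 9 wells lay above day 7 (log2 0.97, SE 0.22, adjusted p = 0.015). SLC8A1, the sodium-calcium exchanger, stood at 322, 223, 283, 277 and 361 CPM, then at 575, 328, 607, 553 and 948 CPM, again with only day 9 well 2 inside the day 7 range (log2 1.04, SE 0.23, adjusted p = 0.016), and without day 7 well 2, 1 of the 10 fits, it missed the threshold (adjusted p = 0.05). TRDN, ASPH and HRC, genes of the release complex and its luminal calcium store, and TMEM38A, a potassium counter-channel of the reticulum, were higher. TRDN was lost in 4 and HRC in 8 of the 10 fits (adjusted p up to 0.06 and 0.13). Also higher were SLN, a small inhibitor of the pump, at 2.79 to 5.63 CPM on day 9, and the kinase gene CAMK2B at 1.61 to 2.90 CPM. The release channel RYR2 ran from 108 to 222 CPM and from 200 to 325 CPM (log2 0.64, adjusted p = 0.086), and phospholamban, PLN, from 76.7 to 115 CPM and from 65.0 to 187 CPM (log2 0.30, adjusted p = 0.58). Neither passed. The list's count was 5 without day 7 well 2, 12 without day 7 well 10 and 1 with the spread of all 44 libraries. With limma on log2(TPM + 1) 0 of 21 were called and 5 were higher at an unadjusted p under 0.05, while DESeq2 called 11.

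Among 35 channel and pump genes 11 were higher (31.4%, against 4.54% of all tested genes) and 0 lower. The median log2 change was 0.55. ATP1B1, the beta subunit of a membrane ion pump, stood at 73.4, 66.9, 67.4, 57.6 and 80.9 CPM on day 7 and at 159, 167, 112, 104 and 168 CPM on day 9, so the days did not overlap (log2 1.04, SE 0.15, adjusted p = 0.0014). The gene overlaps NME7. HCN4, the pacemaker channel, rose from 32.3 to 47.9 CPM to 54.6 to 83.2 CPM (log2 0.79, SE 0.14, adjusted p = 0.0042). CACNB2, a calcium channel subunit, and the potassium channel genes KCNJ8, KCNJ11, KCNA4 and KCNK3 were also called higher. KCNJ8, KCNJ11 and KCNK3 were lost in 3, 6 and 7 of the 10 fits (adjusted p up to 0.11). CACNA1C, the L-type calcium channel, and KCNH2, the rapid delayed rectifier, did not pass (adjusted p = 0.054 and 0.54). The list's count was 7 without day 7 well 2 and 4 with the spread of all 44 libraries. Limma on log2(TPM + 1) called 0 of 21, with 4 higher and 1 lower at an unadjusted p under 0.05, while DESeq2 called 13 higher and 1 lower.

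Energy supply genes were called in part. In the creatine and oxygen list 4 of 11 were higher (36.4%, against 4.54% of all tested genes), with a median log2 change of 0.91. COX6A2, the heart and muscle form of a cytochrome oxidase subunit, ran from 1.48 to 3.54 CPM on day 7 and from 4.98 to 18.7 CPM on day 9, without overlap (log2 2.21, SE 0.34, adjusted p = 0.0018). MB, myoglobin, rose from 7.55 to 17.7 CPM to 17.6 to 39.4 CPM, a narrow overlap (log2 1.27, SE 0.28, adjusted p = 0.016). AK1, adenylate kinase, and CKM, muscle creatine kinase, were the other 2, and CKM was lost in 8 of the 10 fits (adjusted p up to 0.12). With the spread of all 44 libraries 2 of the list were called, and with limma on log2(TPM + 1) 1. Fatty acid oxidation had 10 of 28 higher (35.7%, against 4.54% of all tested genes) and 0 lower, with a median log2 change of 0.39. The 10 were CD36, FABP3, CPT1A, SLC25A20, HADHB, ETFB, ETFDH, PPARA, PDK4 and ACOT2. CD36, a fatty acid uptake protein, was lost in 8 of the 10 fits and HADHB in those without day 7 well 2 or 4 (adjusted p up to 0.11 and 0.06). With the spread of all 44 libraries 4 members were called. With limma on log2(TPM + 1) 0 of 24 were called and 2 were higher at an unadjusted p under 0.05, while DESeq2 called 11. CPT1A, which commits fatty acids to the mitochondrion, stood at 6.12, 5.37, 5.31, 6.54 and 7.12 CPM and then at 15.4, 9.23, 12.3, 12.4 and 13.3 CPM (log2 1.04, SE 0.15, adjusted p = 0.0012). PPARA, a nuclear receptor of the pathway, stood close together within each day, at 33.2 to 39.3 CPM on day 7 and 54.0 to 59.3 CPM on day 9 (log2 0.59, SE 0.07, adjusted p = 0.00055). Its coactivator PPARGC1A, at 19.7 to 31.5 CPM and 26.4 to 46.6 CPM, did not pass (adjusted p = 0.13).

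Of 21 junction genes 3 were higher (14.3%, against 4.54% of all tested genes) and 0 lower, with a median log2 change of 0.09. The called members were GJA3, GJA5 and CTNNA3. GJA3, a connexin better known from the lens, stood at 5.28, 4.71, 6.33, 5.08 and 5.37 CPM on day 7 and at 34.1, 24.4, 26.2, 46.7 and 36.7 CPM on day 9, far outside the spread of either day (log2 2.65, SE 0.18, adjusted p = 2.1e-05). GJA5, a connexin of atrium and conduction tissue, rose from 2.96 to 7.80 CPM to 12.4 to 19.5 CPM (log2 1.53, SE 0.25, adjusted p = 0.0027). GJA1, the main ventricular connexin, ran from 156 to 246 CPM and from 125 to 199 CPM (log2 -0.30, adjusted p = 0.32). CTNNA3, alpha-T-catenin of the intercalated disc, rose from 19.9 to 28.4 CPM to 31.7 to 82.6 CPM (log2 1.18, SE 0.20, adjusted p = 0.0039), while the desmosome genes DSP, DSG2, PKP2 and JUP were not called.

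**Figure D3:**
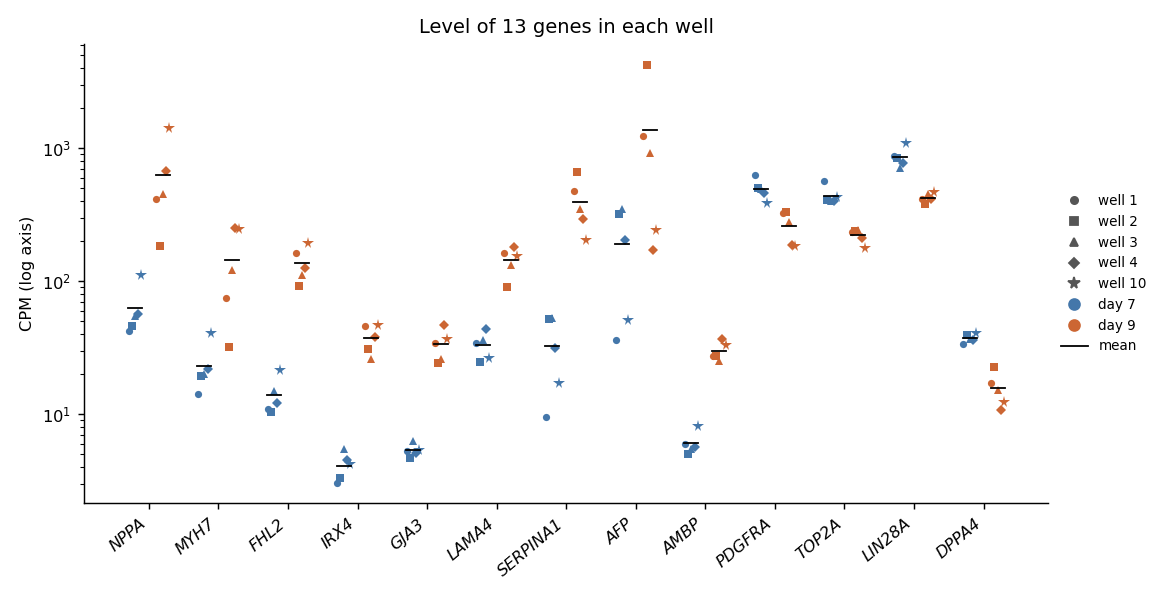
Level in CPM (log axis) of 13 genes in each of the 5 day 7 wells (blue) and 5 day 9 wells (orange); symbols mark the well number and bars the mean. FHL2, IRX4, GJA3 and AMBP separate without overlap, MYH7 and AFP overlap, and day 9 well 2 has the highest AFP (4222 CPM) and the lowest NPPA (183 CPM) of its day.

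A small set of chamber transcription factors rose, while core cardiac factors were not called. Of 39 tested transcription factors 6 were higher (15.4%, against 4.54% of all tested genes) and 2 lower (5.13%, against 3.74%). The median log2 change of 0.07 was close to that of all genes. IRX4, a homeodomain factor of the ventricle (chr5:1877413-1887236), stood at 3.06, 3.33, 5.47, 4.50 and 4.20 CPM on day 7 and at 46.3, 31.1, 25.8, 37.8 and 46.8 CPM on day 9. The lowest day 9 well stood far above the highest day 7 well (log2 3.19, SE 0.21, adjusted p = 2.1e-05). HEY2, a Notch-responsive factor of the ventricle's compact wall, stood at 12.1, 9.74, 9.61, 8.55 and 10.5 CPM and then at 24.8, 14.8, 20.8, 18.2 and 21.4 CPM (log2 0.98, SE 0.14, adjusted p = 0.0014). IRX3 and IRX5, relatives of IRX4, and PROX1 were higher at log2 changes of 1.15, 1.04 and 1.14, and TBX20, a chamber T-box factor, at 0.63. IRX5 was lost in 8 and TBX20 in 6 of the 10 fits (adjusted p up to 0.11 and 0.10). With the spread of all 44 libraries 2 members were called higher and 0 lower, and with limma on log2(TPM + 1) 1 and 0. PROX1 is also known from liver and lymphatic cells, and its gene overlaps PROX1-AS1.

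NKX2-5, the most abundant factor per length, ran from 68.5 to 132 CPM on day 7 and from 76.5 to 182 CPM on day 9 (log2 0.36, adjusted p = 0.46). GATA4 ran from 97.0 to 193 CPM and from 108 to 141 CPM (log2 -0.37, adjusted p = 0.22), and TBX5, HAND2 and MEF2C likewise did not pass. ISL1, a marker of second heart field progenitors, went from 11.0 to 46.9 CPM to 8.02 to 27.5 CPM with wide overlap (log2 -0.62, adjusted p = 0.47). The lower members were MEIS1, a homeodomain cofactor, at 94.8 to 110 CPM and then 72.5 to 84.6 CPM (log2 -0.38, SE 0.08, adjusted p = 0.010), and FOXC1, a forkhead factor of the outflow mesoderm, at a log2 change of -0.57, lost without day 7 well 1 or day 9 well 10 (adjusted p up to 0.06).

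Several receptors and ligands of progenitors fell. PDGFRA, the receptor that marks cardiac mesoderm (chr4:54229097-54298247), stood at 633, 500, 489, 460 and 389 CPM on day 7 and at 325, 333, 279, 187 and 184 CPM on day 9. No wells overlapped (log2 -0.92, SE 0.19, adjusted p = 0.012). APLNR, the apelin receptor of migrating mesoderm, stood at 100, 91.7, 96.0, 102 and 85.1 CPM and then at 46.2, 60.3, 45.6, 30.7 and 24.9 CPM (log2 -1.20, SE 0.20, adjusted p = 0.0029). BMP4, a mesoderm-inducing ligand, stood at 70.5, 81.4, 71.5, 55.4 and 76.4 CPM and then at 42.2, 49.2, 30.3, 34.3 and 34.0 CPM (log2 -0.90, SE 0.14, adjusted p = 0.0021). In each of these 3 genes all day 9 wells were below all day 7 wells. FGFR1, the growth factor receptor with the highest level per length of the list, BMPER, a secreted BMP modulator, and FGF8, a second heart field ligand, were the other lower members. FGF8 was lost in 4 of the 10 fits (adjusted p up to 0.08). Of 32 tested members 6 were lower (18.8%, against 3.74% of all tested genes), with a median log2 change of -0.47. The Wnt antagonist DKK1 was the 1 higher member (3.12%, against 4.54%). DKK1 was lost in 9 of the 10 fits (adjusted p up to 0.12). With the spread of all 44 libraries 3 members were lower and 0 higher. Limma on log2(TPM + 1) called 0 of 22 and 8 were lower at an unadjusted p under 0.05, while DESeq2 called 6 lower and 2 higher. KDR, a receptor shared with the endothelium, ran from 114 to 347 CPM and from 180 to 334 CPM and was not called (adjusted p = 0.85).

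Genes of DNA replication and mitosis fell. Of 40 tested members 38 were lower (95.0%, against 3.74% of all tested genes) and 0 higher, and the median log2 change was -0.82. In 36 of the 40 all day 9 wells lay below all day 7 wells, against 4.48% of all tested genes. TOP2A, the topoisomerase that untangles chromosomes (chr17:40388516-40417950), stood at 569, 406, 398, 400 and 426 CPM on day 7 and at 236, 237, 242, 212 and 178 CPM on day 9 (log2 -0.99, SE 0.13, adjusted p = 0.00078). CCNB2, a cyclin that drives entry into mitosis, stood at 74.8, 58.8, 53.2, 54.6 and 78.3 CPM and then at 40.6, 37.9, 38.5, 30.2 and 36.2 CPM (log2 -0.80, SE 0.13, adjusted p = 0.0023). Day 7 wells 1 and 10 were the highest in CCNB2, and in neither gene did the days overlap. HELLS, a chromatin remodeller of replicating cells, had the largest fall, from 65.5 to 111 CPM to 26.8 to 53.7 CPM (log2 -1.18, SE 0.19, adjusted p = 0.0025).

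Both mitotic and replication genes were among those that fell. AURKB, a mitotic kinase, went from 42.6 ± 7.34 CPM to 21.0 ± 3.99 CPM (SD, n = 5) (log2 -1.02, SE 0.15, adjusted p = 0.0013), and MYBL2, a factor that activates mitotic genes, from 52.3 to 75.2 CPM to 27.9 to 40.1 CPM (log2 -0.99, SE 0.14, adjusted p = 0.0010). MCM7, a subunit of the replicative helicase and the member with the highest level per length, went from 167 to 222 CPM to 108 to 130 CPM (log2 -0.65, SE 0.10, adjusted p = 0.0020), and MCM2 to MCM6 were all lower. MKI67, the proliferation marker, stood at 145, 94.1, 115, 109 and 54.0 CPM and then at 61.0, 46.9, 64.7, 60.3 and 34.5 CPM. Its day 7 well 10 lay within the day 9 range (log2 -0.95, SE 0.24, adjusted p = 0.029), and 5 of the 10 fits lost the call (adjusted p up to 0.08). CCNE1 and CCNE2, cyclins of the entry into replication, were the members not called. Without both wells numbered 10, 38 members were again lower. With the spread of all 44 libraries 3 were called, at a median of -0.87. With limma on log2(TPM + 1) 0 of 38 tested members were called, at a median of -0.81, and 29 were lower at an unadjusted p under 0.05, while DESeq2 on the counts called 38.

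Among brakes of the cycle 1 gene was called. CDKN1A, an inhibitor of cyclin-dependent kinases, was the 1 called gene of 11 tested D cyclins and inhibitors (9.09% higher, against 4.54% of all tested genes). It stood at 13.3, 14.7, 13.0, 12.2 and 23.0 CPM on day 7 and at 27.7, 29.9, 23.8, 31.6 and 43.0 CPM on day 9, with well 10 highest on each day and no overlap (log2 1.03, SE 0.20, adjusted p = 0.0067). CCND1, CCND2, CDKN1B and RB1 had log2 changes of -0.02, -0.31, -0.04 and 0.02 and did not pass.

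The promoters of CCNB2 and TOP2A are shown because CCAAT boxes, bound by NF-Y, and the cell cycle homology region (letters TTTGAA, known for complexes that time mitotic genes) are known elements of this class. Capitals mark CCAAT and TTTGAA or their reverse complements ATTGG and TTCAAA. The windows are chr15:59104896-59105145 (plus strand) and chr17:40417897-40418146 (minus strand) in GRCh38.p14, 250 bases each, with no overlap between the marked boxes. RefSeq and GENCODE place starts differently, so that these windows, like that of NPPA, reach into the GENCODE gene spans.
CCNB2: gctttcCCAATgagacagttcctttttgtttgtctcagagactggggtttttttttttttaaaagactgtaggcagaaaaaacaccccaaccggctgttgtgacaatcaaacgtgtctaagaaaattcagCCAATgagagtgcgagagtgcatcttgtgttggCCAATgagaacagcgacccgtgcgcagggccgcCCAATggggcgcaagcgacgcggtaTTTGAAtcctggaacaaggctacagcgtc
TOP2A: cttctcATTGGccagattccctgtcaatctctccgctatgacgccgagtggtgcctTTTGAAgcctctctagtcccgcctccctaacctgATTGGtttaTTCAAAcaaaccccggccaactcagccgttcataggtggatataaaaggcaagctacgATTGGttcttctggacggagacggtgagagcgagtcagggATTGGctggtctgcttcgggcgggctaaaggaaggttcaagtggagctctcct

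Each of the 2 promoters held 4 CCAAT boxes, and TTTGAA was found once in CCNB2 and in 2 places in TOP2A. Over the 38 lower members, 30 matched a promoter by symbol with 36 windows, and CCAAT was found in 29 of these windows (80.6%), against 32.3% of the windows of tested genes and 32.0% of all 35116 RefSeq windows. TTTGAA was found in 25.0%, 9.29% and 13.3%. The CArG box and the MEF2 site, described above for heart genes, were found in 0 of the 36 windows, which says only that the letters are not in these windows.

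Several pluripotency genes still measured on day 7 fell. DPPA4, a chromatin protein of pluripotent cells (chr3:109326141-109337572), stood at 33.5, 39.1, 36.6, 36.1 and 40.6 CPM on day 7 and at 17.2, 22.5, 15.2, 10.8 and 12.4 CPM on day 9 (log2 -1.25, SE 0.17, adjusted p = 0.00092). LIN28A, an RNA-binding protein that blocks let-7 maturation and the most abundant member per length, stood at 874, 846, 708, 767 and 1085 CPM and then at 411, 378, 449, 415 and 464 CPM (log2 -1.02, SE 0.13, adjusted p = 0.00059). Neither gene's days overlapped. TMSB15A, a thymosin, averaged 24.7 ± 7.20 CPM on day 7 and 11.1 ± 0.943 CPM on day 9 (SD, n = 5), without overlap (log2 -1.16, SE 0.17, adjusted p = 0.0014). LIN28B, DNMT3B, a DNA methyltransferase, ZFP42 and GDF3 were also lower. That made 7 of 17 tested members lower (41.2%, against 3.74% of all tested genes) and 0 higher, with a median log2 change of -0.82. GDF3 was lost in 6 of the 10 fits (adjusted p up to 0.09), and TMSB15A has a near-identical copy that may share its reads. With limma on log2(TPM + 1) 0 of 11 tested members were called and 7 were lower at an unadjusted p under 0.05, while DESeq2 called 8 lower and 1 higher.

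Day 7 well 10 stood apart in this list. POU5F1, the OCT4 gene, was at 32.0 CPM there and at 3.27 to 5.35 CPM in the other day 7 wells, and SOX2 at 13.7 CPM against at most 0.994 CPM. On day 9 POU5F1 ran from 1.18 to 4.65 CPM and SOX2 from 0.741 to 2.30 CPM, and neither was called (adjusted p = 0.14 and 0.44). POU5F1 has several near-identical copies in the genome, so that its reads may be shared. NANOG, the third core factor, was at most 0.611 CPM in any of the 10 wells and was not tested. Summed levels of the list were 1530 to 2029 CPM on day 7 and 987 to 1117 CPM on day 9. Without day 7 well 10, 6 members were lower and the median log2 change was -0.57, and without both wells numbered 10, 6 were lower at a median of -0.65.

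**Figure D4:**
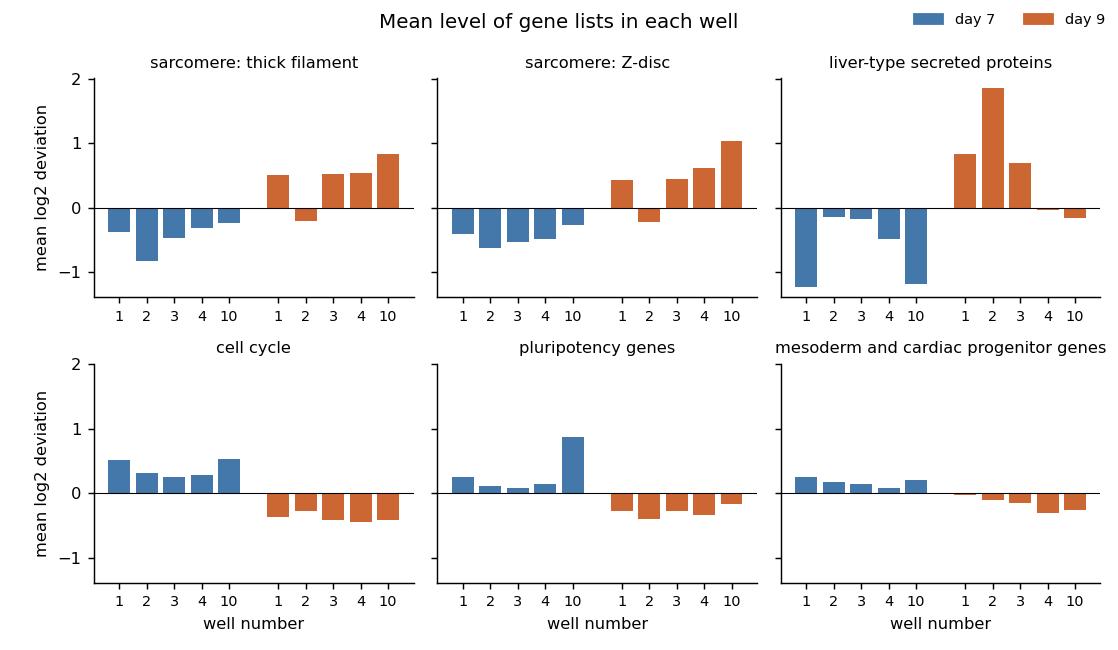
Mean log2 deviation of 6 gene lists in each well: for each tested member, log2(CPM + 1) minus its mean over the 10 wells, averaged over the list. Cell cycle wells separate by day (0.26 to 0.54 against -0.45 to -0.27), day 7 well 10 is highest for pluripotency genes (0.87), and day 9 well 2 is highest for liver-type genes (1.85) and lowest of its day for the sarcomere lists (-0.20 and -0.22).

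Liver-type secreted proteins rose. Of 35 tested plasma protein genes 18 were higher (51.4%, against 4.54% of all tested genes) and 1 lower (2.86%, against 3.74%). The median log2 change was 1.95. SERPINA1, the gene of alpha-1-antitrypsin (chr14:94376747-94390693), stood at 9.52, 51.9, 52.8, 31.7 and 17.2 CPM on day 7 and at 472, 663, 348, 295 and 203 CPM on day 9. All day 9 wells were well above day 7 (log2 3.60, SE 0.48, adjusted p = 0.00083). FGG, the fibrinogen gamma chain, stood at 0.459, 1.32, 1.95, 0.681 and 0.350 CPM and then at 18.2, 47.9, 12.4, 14.2 and 8.28 CPM (log2 4.40, SE 0.57, adjusted p = 0.00072). AMBP, the precursor of alpha-1-microglobulin, was far more even between wells, at 6.00, 5.06, 5.43, 5.62 and 8.17 CPM and then 27.6, 27.4, 24.9, 36.6 and 33.1 CPM (log2 2.31, SE 0.16, adjusted p = 2.1e-05). SERPINA5, the protein C inhibitor, rose from 2.42 to 3.33 CPM to 23.0 to 76.9 CPM (log2 3.79, SE 0.33, adjusted p = 0.00011), and overlaps SERPINA4, also called higher. TF, transferrin, rose from 1.03 to 5.98 CPM to 6.80 to 83.4 CPM (log2 3.04, SE 0.72, adjusted p = 0.021), and was lost without day 7 well 1 or 4 (adjusted p up to 0.06).

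Wells of 1 day differed widely in this group. AFP, alpha-fetoprotein of yolk sac and fetal liver, stood at 35.9, 317, 349, 204 and 50.9 CPM on day 7 and at 1225, 4222, 918, 172 and 244 CPM on day 9. Day 9 well 2 had by far the most, wells 4 and 10 of day 9 were inside the day 7 range, and the change did not pass (log2 2.83, adjusted p = 0.078). AHSG, fetuin A, followed the same wells, with 0.153, 4.57, 5.16, 2.25 and 0.233 CPM and then 45.7, 239, 24.0, 1.69 and 3.67 CPM (log2 4.66, SE 1.27, adjusted p = 0.043). It was lost in 8 of the 10 fits (adjusted p up to 0.11), and the change was 2.92 without day 9 well 2. APOA1 and APOB, lipoprotein genes, and ALB, albumin, at 0.350 to 3.20 CPM and 1.45 to 12.6 CPM, did not pass (adjusted p = 0.63, 0.51 and 0.16). The 1 lower member was the complement gene C3, at 14.4 to 19.5 CPM and then 5.46 to 10.9 CPM (log2 -1.27, SE 0.18, adjusted p = 0.0013). Summed levels of the list were 1008 to 2568 CPM on day 7 and 1836 to 11249 CPM on day 9. Without both wells numbered 10, 17 members were higher, with the spread of all 44 libraries 11, and with limma on log2(TPM + 1) 8. With the RNA integrity score, which reached lower values on day 9, as a covariate 12 were higher, at a median log2 change of 1.32.

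Endoderm and epithelial genes were called in both directions beside these secreted proteins. Of 30 tested members 3 were higher (10.0%, against 4.54% of all tested genes), SPINK1, PDX1 and PROX1. PRDM1 was the 1 lower member (3.33%, against 3.74%), and the median log2 change was -0.01. SPINK1, a trypsin inhibitor of gut and liver cells, was at most 0.233 CPM on day 7 and 1.18 to 3.94 CPM on day 9. HNF4A, a master factor of hepatocytes, ran from 16.6 to 67.6 CPM and from 21.0 to 93.5 CPM (log2 0.25, adjusted p = 0.80), and FOXA2 from 25.3 to 34.3 CPM and from 17.1 to 35.1 CPM (log2 -0.16, adjusted p = 0.66). The keratin KRT8, the most abundant member per length, the adhesion gene EPCAM and SOX17 did not pass either. Summed levels of the list were 3788 to 6318 CPM on day 7 and 3243 to 4516 CPM on day 9, and their part in the plasma protein values was not tested.

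Markers of other lineages were present at both days, and some were called. In the endothelial list 2 of 23 members were higher (8.70%, against 4.54% of all tested genes) and 0 lower. The median log2 change was 0.09. EMCN, endomucin of endocardium and veins, stood at 3.90, 5.27, 5.86, 5.72 and 1.79 CPM on day 7 and at 20.8, 20.0, 21.8, 20.6 and 13.6 CPM on day 9 (log2 2.10, SE 0.27, adjusted p = 0.00066). ENG, endoglin, rose from 2.26 to 7.38 CPM to 14.5 to 23.1 CPM (log2 1.82, SE 0.31, adjusted p = 0.0031). Well 10 was the lowest in EMCN on each day, and the junction markers PECAM1 and CDH5 were not called (adjusted p = 0.25 and 0.49). Summed endothelial levels were 442 to 945 CPM and 609 to 909 CPM.

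Smooth muscle had 2 of 16 members higher (12.5%, against 4.54% of all tested genes), MYLK and CSPG4. They were lost in 7 and 5 of the 10 fits (adjusted p up to 0.09 each). ACTA2 was at 316 to 756 CPM and 259 to 672 CPM (log2 -0.10, adjusted p = 0.90). Epicardial and fibroblast genes had 2 of 22 lower (9.09%, against 3.74% of all tested genes), PODXL and FBLN2. WT1 and COL1A1 did not pass (adjusted p = 0.39 and 0.28). Of 23 ectoderm markers 13 were not tested for low counts, among them PAX6 and SOX1. DCX, a microtubule protein of young neurons, rose from 1.91 to 2.74 CPM to 4.34 to 6.80 CPM (log2 1.24, SE 0.18, adjusted p = 0.0013). STMN2 was higher and OTX2 lower, and both STMN2 and OTX2 were lost in 7 of the 10 fits (adjusted p up to 0.07). Of 20 skeletal muscle genes 14 were not tested, and 0 of the other 6 were called by edgeR or DESeq2, with 1 higher and 1 lower at an unadjusted p under 0.05. MYOD1 and MYOG were at most 0.191 and 0.160 CPM in any well.

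A few signalling genes were called, in both directions. In the Wnt list 2 of 32 were higher (6.25%, against 4.54% of all tested genes) and 2 lower (6.25%, against 3.74%). These shares were near those of all genes, and the median log2 change was 0.00. FZD7, a Wnt receptor and the list's most abundant member per length, stood at 413, 302, 289, 363 and 305 CPM on day 7 and at 169, 202, 196, 176 and 130 CPM on day 9 (log2 -0.94, SE 0.14, adjusted p = 0.0016). SP5, a direct target of the pathway, fell from 8.77 to 11.0 CPM to 4.45 to 6.36 CPM (log2 -0.86, SE 0.13, adjusted p = 0.0018), while AXIN2, another target, was not called at 19.5 to 26.7 CPM and 22.2 to 25.3 CPM (log2 0.15, adjusted p = 0.48). DKK3, a secreted relative of the Wnt antagonists, stood at 33.5, 31.6, 34.5, 35.5 and 43.1 CPM and then at 90.4, 62.0, 84.3, 71.9 and 142 CPM (log2 1.34, SE 0.20, adjusted p = 0.0013). DKK1, the other member called higher, was lost in 9 of the 10 fits, as given above.

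In the BMP and Notch list 5 of 35 were lower (14.3%, against 3.74% of all tested genes) and 2 higher (5.71%, against 4.54%). The median log2 change was -0.07. The lower members were BMP4, BMP6, BMPER, the Notch ligand JAG1 and NRARP, a feedback inhibitor of Notch that stood at 6.13 to 8.03 CPM and then at 3.76 to 4.37 CPM (log2 -0.78, SE 0.13, adjusted p = 0.0031). HEY2 was among the higher members. JAG1 was lost in 7 of the 10 fits and BMP6 in those without day 7 well 1 or day 9 well 1 (adjusted p up to 0.10 and 0.06). ID1, ID2 and ID3, the BMP targets, were not called. Among 27 retinoid and FGF genes 3 were lower (11.1%, against 3.74% of all tested genes) and 2 higher (7.41%, against 4.54%). DUSP6, a phosphatase induced by ERK signalling, stood at 496, 296, 277, 308 and 380 CPM and then at 185, 154, 196, 187 and 178 CPM (log2 -0.97, SE 0.16, adjusted p = 0.0025). FGF18 rose from 0.511 to 1.40 CPM to 1.85 to 7.98 CPM (log2 2.35, SE 0.41, adjusted p = 0.0038), and ALDH1A1, a retinaldehyde dehydrogenase, from 15.9 to 31.1 CPM to 33.3 to 62.8 CPM (log2 1.06, SE 0.21, adjusted p = 0.0093). CRABP2 was lower with all wells and lost in 8 of the 10 fits (adjusted p up to 0.13).

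Matrix genes had 6 of 35 higher (17.1%, against 4.54% of all tested genes) and 0 lower, with a median log2 change of 0.19. LAMA4, a laminin chain of heart and vessel basement membranes (chr6:112108760-112254939), stood at 34.5, 24.8, 35.9, 43.5 and 26.3 CPM on day 7 and at 163, 90.9, 133, 180 and 154 CPM on day 9 (log2 2.13, SE 0.20, adjusted p = 0.00014). LAMA2, the chain of laminin LN-221, stood at 7.00, 6.65, 8.16, 7.80 and 8.25 CPM and then at 42.6, 28.4, 35.5, 31.0 and 36.0 CPM (log2 2.20, SE 0.12, adjusted p = 1.1e-05). Neither chain's days overlapped. LAMA5, the chain of LN-521, ran from 141 to 307 CPM and from 154 to 367 CPM (log2 0.01, adjusted p = 0.99), and LAMA1 from 399 to 760 CPM and from 212 to 445 CPM (log2 -0.70, adjusted p = 0.068). FBN2, a fetal fibrillin, rose from 426 to 798 CPM to 823 to 2286 CPM (log2 1.28, SE 0.26, adjusted p = 0.0095). ITGA1, a collagen and laminin receptor, VCAN, a proteoglycan of the cardiac jelly, and LOXL2 completed the 6. VCAN was lost without day 7 well 2 or day 9 well 3 and LOXL2 in 6 of the 10 fits (adjusted p up to 0.06 and 0.08). FN1, fibronectin, the most abundant per length, ran from 7529 to 14946 CPM and from 6623 to 15738 CPM and was not called (adjusted p = 0.91).

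The 12 largest rises among protein-coding genes of at least 5 CPM on the higher day, called, at least 2-fold changed and with wells that did not overlap, were ADH1B, FGG, SERPINA5, FBXO40, SERPINA1, ADPRHL1, NPPA, LIPH, FHL2, STUM, IRX4 and TF. ADH1B, an alcohol dehydrogenase of liver and fat whose close relatives lie beside it in the genome, stood at 0.115, 0.416, 0.547, 0.409 and 0.0389 CPM on day 7 and at 11.8 to 19.3 CPM on day 9. The log2 change was 5.56 (SE 0.39, adjusted p = 2.3e-05), and wells within day 9 were close to each other. ADPRHL1, a heart-specific relative of ADP-ribosyl hydrolases, stood at 3.10, 3.12, 4.22, 3.34 and 7.00 CPM and then at 61.5, 32.4, 39.6, 37.8 and 80.0 CPM (log2 3.60, SE 0.31, adjusted p = 0.00011). FBXO40, a muscle ubiquitin ligase subunit, rose from 0.153 to 0.547 CPM to 3.25 to 8.20 CPM (log2 3.75, SE 0.35, adjusted p = 0.00014). STUM rose from 0.306 to 1.43 CPM to 4.58 to 9.35 CPM (log2 3.20, SE 0.35, adjusted p = 0.00030), and LIPH, a lipase, from 0.0765 to 1.17 CPM to 1.62 to 16.3 CPM (log2 3.30, SE 0.74, adjusted p = 0.016).

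The 12 largest falls were BRINP2, COL19A1, ASTN1, BTBD11, SLC28A2, UGT3A2, SLC7A3, ITLN2, CCKBR, BMP6, BAALC and LFNG. All but that of BRINP2 were smaller in size than each of the 12 largest rises. BRINP2, a gene of the nervous system, stood at 5.35, 1.91, 2.54, 4.77 and 12.1 CPM on day 7 and at 0.343, 0.404, 0.669, 0.415 and 0.768 CPM on day 9 (log2 -3.36, SE 0.50, adjusted p = 0.0015). ASTN1, an astrotactin of neural migration whose gene (chr1:176857302-177164973) neighbours BRINP2 (chr1:177171497-177282422), stood at 7.88, 5.27, 7.38, 7.22 and 7.32 CPM and then at 2.06, 3.10, 2.09, 2.07 and 1.71 CPM (log2 -1.66, SE 0.18, adjusted p = 0.00032). In both genes no day 9 well reached day 7. SLC7A3, a cationic amino acid carrier, stood at 37.6, 34.2, 29.8, 36.0 and 69.5 CPM and then at 12.2, 17.9, 13.7, 14.9 and 13.7 CPM (log2 -1.52, SE 0.21, adjusted p = 0.0011). LFNG, a sugar transferase that modifies Notch, went from 35.3 to 57.4 CPM to 13.2 to 22.7 CPM (log2 -1.35, SE 0.19, adjusted p = 0.00096), and BAALC from 27.8 to 41.9 CPM to 7.85 to 16.2 CPM (log2 -1.37, SE 0.20, adjusted p = 0.0014). The other 7 had log2 changes from -1.76 in COL19A1 to -1.40 in BMP6.

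Levels across all sampled days place the step from day 7 to day 9, here with scaling over all 44 libraries and as a description without a test. NPPA was 2.22 ± 1.31 CPM on day 5, 61.6 ± 27.9 on day 7, 618 ± 463 on day 9, 804 ± 619 on day 11 (SD, n = 5 each) and 242 ± 119 on day 14 (SD, n = 3). SERPINA1 went from 3.46 ± 2.50 on day 5 to 32.3 ± 19.5, 391 ± 176 and 436 ± 405 (SD, n = 5 each), and was back at 44.7 ± 50.4 on day 30 (SD, n = 3). DPPA4 stood at 727 ± 22.8 CPM on day 0 (SD, n = 3) and was lower on each later day, with 72.2 ± 4.18 on day 5, 36.7 ± 2.72 on day 7 and 15.5 ± 4.50 on day 9 (SD, n = 5 each). TNNT2 made its main rise earlier, from 81.5 ± 26.6 on day 5 to 684 ± 117 on day 7 (SD, n = 5 each). IRX4 was 0.697 ± 0.272 on day 5, 4.06 ± 0.953 on day 7 and 37.1 ± 9.14 on day 9 (SD, n = 5 each) and reached 112 ± 35.2 on day 20 (SD, n = 3). TOP2A was 420 ± 53.7 on day 5, 434 ± 72.4 on day 7, 218 ± 26.5 on day 9 and 201 ± 148 on day 11 (SD, n = 5 each), with a wider spread between wells on day 11 than on day 9.

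**Figure D5:**
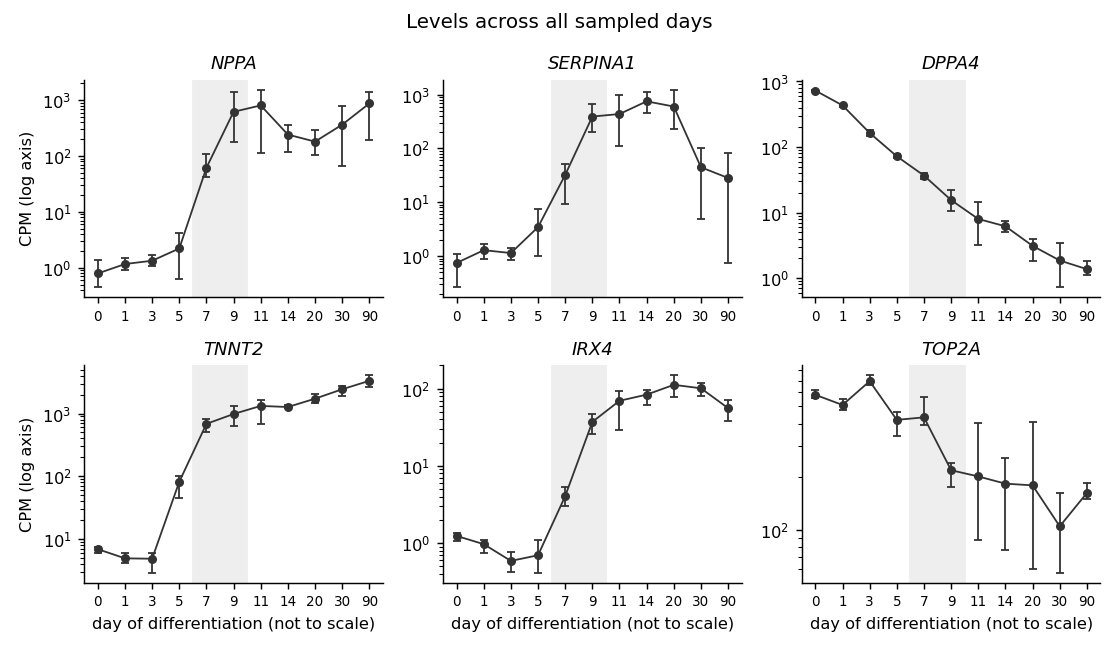
Mean CPM (log axis) of 6 genes at each sampled day of differentiation, with bars from the lowest to the highest well (5 wells at days 5 to 11, otherwise 3); the grey band holds days 7 and 9. NPPA, SERPINA1 and IRX4 climb through the band, TNNT2 climbs mainly before it, and DPPA4 and TOP2A are lower at day 9 than at day 7.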

How the data were processed

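RNA-seq of 5 wells at day 7 and 5 wells at day 9 was analysed, grouped by the labels. The authors deposited estimated counts and TPM per gene in the gene tables, and per the labels' sample table a lane (other) and an RNA integrity score per library. The submitters' processing notes name cutadapt, STAR 2.5.2b, RSEM 1.2.31 and hg38; annotation and use of strand are not given in the sources used here. Per the labels, total RNA went into stranded libraries read as 150 bp pairs with 10 libraries per lane. Of 60499 deposited identifiers 56769 matched GENCODE 29 (GRCh38), which gave symbols and coordinates. Promoters are RefSeq's, GRCh38.p14.

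Estimated counts, 93.8% of them whole within 1e-9, were rounded and tested with edgeR 4.0.16 in R 4.3.3 (quasi-likelihood, TMM, filterByExpr, day as the term, 10 libraries), with Benjamini-Hochberg adjustment over 17698 genes and a threshold of 0.05. Alternatives were DESeq2 1.42.0, limma 3.58.1 on log2(TPM + 1) or log2(TPM + 0.1), other filters and scalings, all 44 libraries, lane, integrity, a replicate block, and each well left out. In simulated data of 17698 genes, changes were put into 100 genes per size, drawn only from genes above a minimum mean count. Among these, 82% of log2 changes of 1 and 100% of changes of 2 were called. Genes below that count were given no change, so the rates do not cover low genes. A count of 3 corresponds to 0.0957 to 0.128 CPM, which sets the limit for low genes. Printed genes were the 12 largest rises and falls under the rule in the text, up to 4 called members per list and direction, each list's member of highest TPM, and NPPA, SERPINA1 and DPPA4. Some results under this rule are not reported here. Other genes were chosen after their values were seen. The gene lists and members were chosen with earlier results of these data known.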

Additional observations from a re-analysis of the deposited data

Results flagged for a closer look

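Single wells stood apart from the other 4 of their day in 49 of 426 groups of 5 wells checked, each holding a gene, a library measure or a principal component on 1 day, by a gap to the nearest well above 0.71 of the group's range. For independent, normally distributed values chance gives about 1 in 20 groups. The groups here include unlogged CPM of related genes, so that rate is only a guide. The rule also ignores how large a gap is: SLC25A20 was flagged at 10.4 CPM against 9.61 to 9.79 CPM. Of the 49, 32 were in a well numbered 10 and 8 in day 9 well 2.

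In CPM, day 7 well 10 was the far high value for ADPRHL1 at 7.00, CDKN1A at 23.0, CKM at 91.7, CRYAB at 14.6, CSRP3 at 28.1, FGF18 at 1.40, ID1 at 346 and ID3 at 331. It was also far high for LPL at 67.1, MCM7 at 222, MYH7 at 40.6, MYL3 at 124, NPPA at 112, NPPB at 94.7, NPR3 at 19.8 and OTX2 at 17.2. It was also far high for PLN at 115, POU5F1 at 32.0, PRDM1 at 11.0, SLC25A20 at 10.4, SLC7A3 at 69.5 and SOX2 at 13.7. It was the far low value for COL1A1 at 270 and JUP at 181. On day 9, well 10 was far high for ISL1 at 27.5, KRT8 at 2036 and LPL at 52.2, and far low for DSP at 602, EMCN at 13.6, KDR at 180 and LAMA1 at 212. On the second principal component day 9 well 10 stood at 31.4, against -15.6 to -2.5 in the other day 9 wells. Myosin, natriuretic peptide and pluripotency genes were thus among those high in day 7 well 10.

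Day 9 well 2 was far high for AFP at 4222, AHSG at 239, APOA1 at 1342, ASTN1 at 3.10, DSG2 at 287, FGG at 47.9 and TF at 83.4, and far low for STMN2 at 1.08. Most of the genes in which it was high encode plasma proteins. Elsewhere ASTN1 stood apart at 5.27 in day 7 well 2, BTBD11 stood apart at 12.7 in day 7 well 1, CSPG4 stood apart at 26.9 in day 9 well 4, FLNC stood apart at 1339 in day 9 well 4, MYOD1 stood apart at 0.191 in day 9 well 1, SERPINA4 stood apart at 0.102 in day 7 well 4, SERPINA5 stood apart at 76.9 in day 9 well 4, TBX5 stood apart at 76.7 in day 9 well 1, TOP2A stood apart at 569 in day 7 well 1. The cause of these values was not tested.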

How the results depend on the processing

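Estimating the spread from all 44 libraries gave 327 higher and 126 lower genes (233 and 60 at least 2-fold), with 3 cell cycle members lower and 11 liver-type and 5 thick filament members higher. Of the 803 and 662 genes, 300 and 117 were among these calls. With limma on log2(TPM + 1) 54 were higher and 8 lower, all at least 2-fold, with 0 cell cycle and 0 pluripotency members lower and 8 liver-type, 3 thick filament and 5 Z-disc members higher. With + 0.1 in place of + 1 the counts were 49 and 8, again all at least 2-fold, with 0, 0, 7, 3 and 5 members. Without a filter limma called 5 higher and 0 lower (4 and 0 at least 2-fold) and 1410 at an unadjusted p under 0.05, with 0 cell cycle, 0 pluripotency, 0 liver-type, 0 thick filament and 1 Z-disc members. An integrity covariate left 576 higher and 413 lower, and DESeq2 called 1086 and 1052. A lane term gave 853 higher and 685 lower, with 37 cell cycle members lower and 13 liver-type members higher. The cause of these differences was not tested. Leaving out 1 well gave 526 to 922 higher, 460 to 710 lower, 293 to 424 and 91 to 166 at least 2-fold, and 34 to 37 cell cycle, 14 to 19 liver-type, 7 to 10 thick filament, 9 to 14 Z-disc and 6 to 7 pluripotency members. Of 213 called members 39 were lost in at least 1 of these fits. Of the 107 called genes among the 123 named by rule, 0 reversed sign under these alternatives.

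The well numbers were checked as a pairing. Deviations of same-numbered wells correlated at 0.094 to 0.73 (mean 0.40), against a mean of -0.095 for other pairs. Day 7 wells correlated best with their own number in 4 of 5 cases. Wells 2 and 4 correlated with their own numbers at 0.48 and 0.49 although their lanes differed between days. The labels do not say what a number marks, so the main fit takes no pairs. It therefore does not model what same-numbered wells share, and a gene that did not pass in it may pass with the numbers as a block. Wells 1 and 10 also kept their lane between days, at 0.19 and 0.73, so number and lane cannot be told apart there. A replicate block on the number called 1581 higher and 1260 lower genes, 796 and 660 of them shared with the fit without it, 11 pluripotency and 12 progenitor members lower, and 8 thin filament members higher and 1 lower.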

Other observations

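Replication-dependent histone genes, a family looked at after the data were seen, were lower on day 9. Of 67 tested genes whose symbols start with HIST 42 were lower and 0 higher, with a median log2 change of -0.84 against 0.02 over all genes, and histone genes took 0.637% to 0.836% of counts on day 7 and 0.302% to 0.512% on day 9. Their copies are near identical, so that single members are uncertain. Kinesin genes had 14 of 41 lower and centromere protein genes 10 of 24 lower, while 3.74% of all tested genes were lower. Of 90 nuclear genes of the respiratory chain 85 had positive log2 changes, against 9514 of all 17698 tested genes. Their median was 0.23, and 3 were called higher, a share below the 4.54% of all tested genes. The 15 mitochondrially encoded genes tested were all positive with a median of 0.62 and none passed, while their share of counts was 0.161% to 0.396% on day 7 and 0.240% to 0.605% on day 9. All 12 tested HOX genes had negative changes, against 8184 of all 17698 tested genes, with HOXB1 called (log2 -2.17, adjusted p = 0.016).

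Vasoactive genes and a sarcomere ligase, likewise chosen after their values were seen, rose. EDN1, endothelin 1, stood at 6.73, 8.32, 7.62, 6.23 and 11.9 CPM on day 7 and at 23.8, 13.7, 36.4, 45.6 and 49.8 CPM on day 9 (log2 2.05, SE 0.32, adjusted p = 0.0019). AGTR1, the angiotensin receptor, rose from 0.994 to 2.22 CPM to 6.68 to 8.97 CPM (log2 2.26, SE 0.21, adjusted p = 0.00014). TRIM63, a ubiquitin ligase of the sarcomere, rose from 1.28 to 2.45 CPM to 4.38 to 14.4 CPM (log2 2.23, SE 0.31, adjusted p = 0.0010). In all 3 genes no day 9 well overlapped day 7. NMU, the gene of the neuropeptide neuromedin U, fell (log2 -2.79, adjusted p = 0.0004), and MIR122HG, the host transcript of a liver microRNA, rose (log2 3.11, adjusted p = 0.0013).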
